A study of Homo sapiens with 8 samples.

Results

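RNA of β-catenin and of the proteins that mark it for destruction was measured in SW480, an established human colorectal cancer line, with and without overexpression of SPOCK1. The set holds 10 genes, taken by name from a table of 58735: CTNNB1, which encodes β-catenin, the scaffolds AXIN1, APC and APC2, the kinases GSK3A, GSK3B and CSNK1A1, the ubiquitin ligase subunit BTRC, and the tankyrases TNKS and TNKS2. SPOCK1-overexpressing cells carried a FLAG-tagged SPOCK1, a secreted proteoglycan, delivered by lentivirus under puromycin selection, and vector cells carried the control vector. Each group has 4 RNA sequencing libraries, numbered 1 to 4. Both groups share the SW480 background, in which APC is truncated, so wild-type APC is missing on both sides of the comparison. The promoter of the construct is not given in the sources used here, nor whether the 4 libraries of a kind stem from different cultures or infections. Each p-value thus covers library-to-library spread alone, possibly of technical origin, and the effect of SPOCK1 and other differences between 2 selected populations cannot be told apart.

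β-catenin works at cell junctions, where it ties cadherins to the actin cytoskeleton, and in the nucleus, where it serves TCF/LEF factors as a coactivator. Without a Wnt signal, axin and APC hold β-catenin while casein kinase 1α and then GSK3 phosphorylate its amino-terminal end, and β-TrCP, the product of BTRC, reads the phosphorylated stretch and directs ubiquitylation. Tankyrases lower axin protein by attaching poly(ADP-ribose) to it. Colorectal cancers commonly lose this control by truncation of APC, which removes sites that bind β-catenin and axin. These steps act on protein, so counts of RNA give the supply of the components and neither the amount nor the phosphorylation of β-catenin.

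The stretch on which the complex acts is shown because casein kinase 1α, GSK3 and β-TrCP all work on it. It is the reference sequence of GENCODE release 29 transcripts (GRCh38, plus strand, chr3:41224606-41224647, exon 3 of the CTNNB1 transcript used), read 5′ to 3′, and covers 42 bases of coding sequence. Capitals mark codons 33, 37, 41 and 45 of the 781 coding codons, which encode the phosphorylated serines and threonine. Casein kinase 1α acts on the last of them and GSK3 on the others. The counts per gene do not show whether the transcripts of these cells carry this sequence.
CTNNB1: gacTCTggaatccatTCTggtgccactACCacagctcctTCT

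Libraries held 35643585 to 42812951 counts. SPOCK1 itself averaged 220.6 ± 31.1 CPM in SPOCK1 cells and 0.096 ± 0.072 CPM in vector cells (SD, n = 4 each), where CPM are counts relative to library sizes scaled with TMM factors. Of 8 markers of colorectal epithelium, 6 averaged at least 1 CPM, with summed levels of 14498 to 16188 CPM in SPOCK1 libraries and 12910 to 15811 CPM in vector libraries. CDX1 and CDH17, defining markers of intestinal epithelium, were near 0, and KRT8, KRT18, EPCAM and CDX2 were present. The summed level of 7 fibroblast markers was 1.05 to 1.78 CPM in SPOCK1 libraries and 1.05 to 2.29 CPM in vector libraries. That of 6 blood markers was 0.993 to 1.37 CPM in SPOCK1 libraries and 1.15 to 1.62 CPM in vector libraries, and that of 4 endothelial markers 0.855 to 1.23 CPM in SPOCK1 libraries and 0.485 to 1.27 CPM in vector libraries. LUM, DCN, CDH5 and KDR had no count in any library. Ribosomal RNA genes took 0.560% to 0.671% of counts in SPOCK1 libraries and 0.696% to 0.738% in vector libraries, without overlap, and the part of this difference in the results was not tested. A second feature ran across both groups. The GC trend of a library, its mean log2 deviation in the GC-richest quintile of genes minus that in the GC-poorest quintile, was -0.27 and -0.19 in SPOCK1 libraries 1 and 3 and -0.13 and -0.17 in vector libraries 1 and 3, against 0.03 and 0.26 in SPOCK1 libraries 2 and 4 and 0.21 and 0.26 in vector libraries 2 and 4.

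All 10 genes passed the filter on low counts, and none was called changed in SPOCK1 cells. At an adjusted p under 0.05 (edgeR quasi-likelihood test, Benjamini-Hochberg over 15790 genes), 0 of 10 rose and 0 fell, 0 of 10 had an unadjusted p under 0.05, against 2157 of the 15790, and DESeq2 and limma-voom also called 0. The background was low, since 1.04% of all genes were called, 0.247% as higher and 0.798% as lower in SPOCK1 cells, so 0 of 10 is near that share. The groups overlapped for every one of the 10, against 8.23% of all genes without overlap. The median log2 fold change of the 10 was -0.10, with 3 positive and 7 negative, and the median over all genes tested was -0.0042. With offsets for GC content and length, described with AXIN1, the median of the 10 was -0.01, with 5 positive, and that of all genes 0.02. The 95% interval of 9 of the 10 lay within a 1.5-fold change either way, APC being the exception, and those of all 10 lay within 2-fold. In bulk RNA a smaller share of cells that express a gene and less RNA per cell cannot be told apart.

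Per length of exon, β-catenin RNA stood above that of every other gene of the set in 8 of 8 libraries. CTNNB1 averaged 91.2 ± 7.31 CPM per kb in SPOCK1 cells and 82.7 ± 4.44 CPM per kb in vector cells (SD, n = 4 each). GSK3A followed at 21.6 to 26.5 CPM per kb over all 8 libraries and CSNK1A1 at 17.8 to 22.7, and these neighbours in the order were not separated, since GSK3A was higher in 6 of 8 libraries. AXIN1 came next at 10.2 to 12.4 CPM per kb, below CSNK1A1 in 8 of 8 libraries. GSK3B, at 5.75 to 7.50, and TNKS2, at 5.45 to 7.26, had overlapping ranges, and GSK3B was higher in 5 of 8 libraries. BTRC had 2.43 to 3.17 CPM per kb, TNKS 1.08 to 1.69, APC 0.512 to 1.33 and APC2 0.341 to 0.773. TNKS exceeded APC in 7 of 8 libraries and APC exceeded APC2 in 8 of 8. The level of CTNNB1 per length was 8.10 ± 1.30 times that of AXIN1 in SPOCK1 cells and 7.63 ± 0.683 times in vector cells, and 115.3 ± 54.3 times that of APC in SPOCK1 cells and 85.3 ± 23.2 times in vector cells. Exonic length here joins the exons of all transcripts of a gene, so genes with long alternative exons are given too low a level per length.

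**Figure D1:**
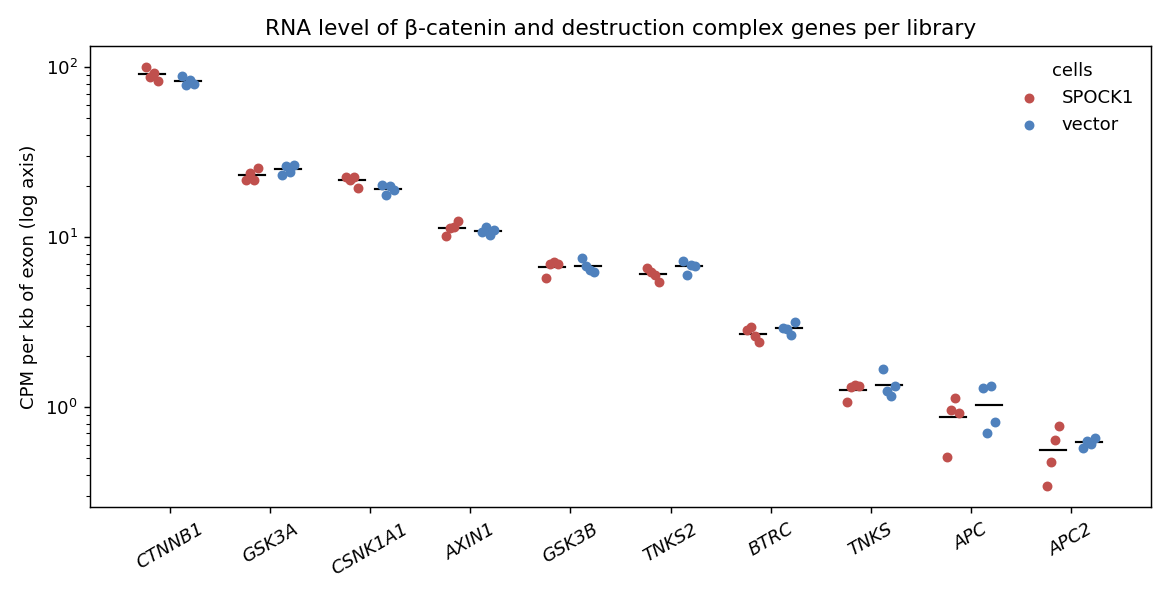
Level of each of the 10 genes per library, in CPM per kb of exon on a log axis, with genes ordered by their mean over all 8 libraries. Points are libraries, SPOCK1 on the left and vector on the right of each gene, and bars are group means. CTNNB1, at 78.7 to 100.5 CPM per kb, lies apart from the other 9, and APC and APC2 are lowest.

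CTNNB1 (ENSG00000168036, chromosome 3, 41194741 to 41260096, plus strand) had 1198.8, 1051.5, 1105.1 and 993.8 CPM in SPOCK1 libraries 1 to 4, and 1053.5, 939.0, 1004.0 and 949.5 CPM in vector libraries 1 to 4. SPOCK1 libraries 1 and 3 exceeded every vector library, and SPOCK1 libraries 2 and 4 lay among the vector values. The log2 fold change was 0.14 ± 0.08 (SE, adjusted p = 0.448), with an interval from -1.65% to 23.5%. The gene ranked at place 102 of 15790 by CPM and at place 511 by CPM per kb, with 34781 to 47848 counts per library behind it. Libraries 1 and 3, with the lower GC trend, were above libraries 2 and 4 in SPOCK1 cells, and so they were in vector cells. With a block for these 2 sets of libraries, added after seeing the data, CTNNB1 differed by 0.14 on the log2 scale (adjusted p = 0.228). Within libraries 1 and 3 the log2 fold change was 0.17, and within libraries 2 and 4 it was 0.11 (adjusted p = 0.552 and 0.667). The 5 protein-coding genes whose profile over the 8 libraries was nearest to that of CTNNB1, out of 11807 compared, were HKR1, ZW10, EIF2S3, XRN2 and HACD3, at root mean square differences of 0.029 to 0.033 on the log2 scale against a median of 0.19.

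**Figure D2:**
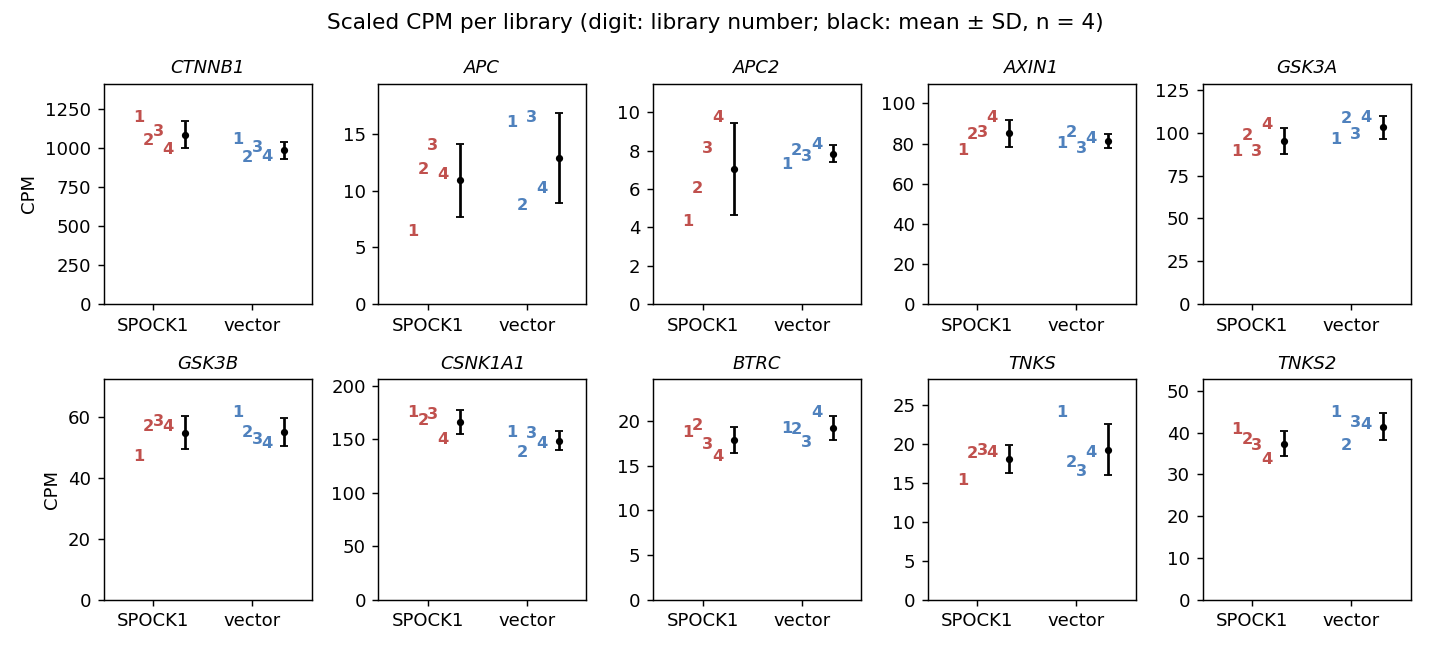
Scaled CPM of each gene in every library, on axes that start at 0. Digits are library numbers, SPOCK1 on the left and vector on the right, and black points with bars are means ± SD (n = 4). The groups overlap in all 10 panels, and SPOCK1 library 1 is lowest in 6 of them and highest in 2.

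Among the scaffolds, AXIN1 passed the test with an adjustment for GC content and length and not without it. AXIN1 (chromosome 16, 287440 to 352673, minus strand), the limiting scaffold of the complex in several systems, had 76.6, 84.7, 85.8 and 93.1 CPM in SPOCK1 libraries 1 to 4 and 79.9, 85.6, 77.4 and 82.6 CPM in vector libraries 1 to 4. SPOCK1 library 1 was the lowest of all and SPOCK1 library 4 the highest. The log2 fold change was 0.06 ± 0.08 (SE, adjusted p = 0.774). The GC content of its longest transcript is 63.8%, against 39.6% for APC and 43.5% for CTNNB1. When offsets on GC content and on exonic length were fitted in each library, log2 CPM of AXIN1 became 6.53, 6.46, 6.50 and 6.43 in SPOCK1 libraries and 6.27, 6.29, 6.27 and 6.26 in vector libraries, without overlap. The log2 fold change was then 0.21 ± 0.05 (SE, adjusted p = 0.0393), and AXIN1 was the 1 of 10 genes called, against 3.78% of all genes, of which 311 rose and 286 fell, in place of 39 and 126 without offsets. Adding the replicate number as a block to the offsets ended that call (adjusted p = 0.130), as did the removal of 1 library in 7 of 8 cases, with adjusted p of 0.0608 to 0.108. The exception was the fit without SPOCK1 library 4 (adjusted p = 0.0479).

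Under the same offsets 3 of the 10 genes had groups without overlap, against 12.3% of all genes. Besides AXIN1 these were CTNNB1, higher in SPOCK1 cells by 0.18 ± 0.06 on the log2 scale (SE, adjusted p = 0.115), and TNKS2, lower at -0.17 ± 0.07 (adjusted p = 0.189). Neither passed the test. CSNK1A1 stood at 0.17 ± 0.06 with offsets (adjusted p = 0.111). Offsets also remove any change that itself follows GC content or length.

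**Figure D3:**
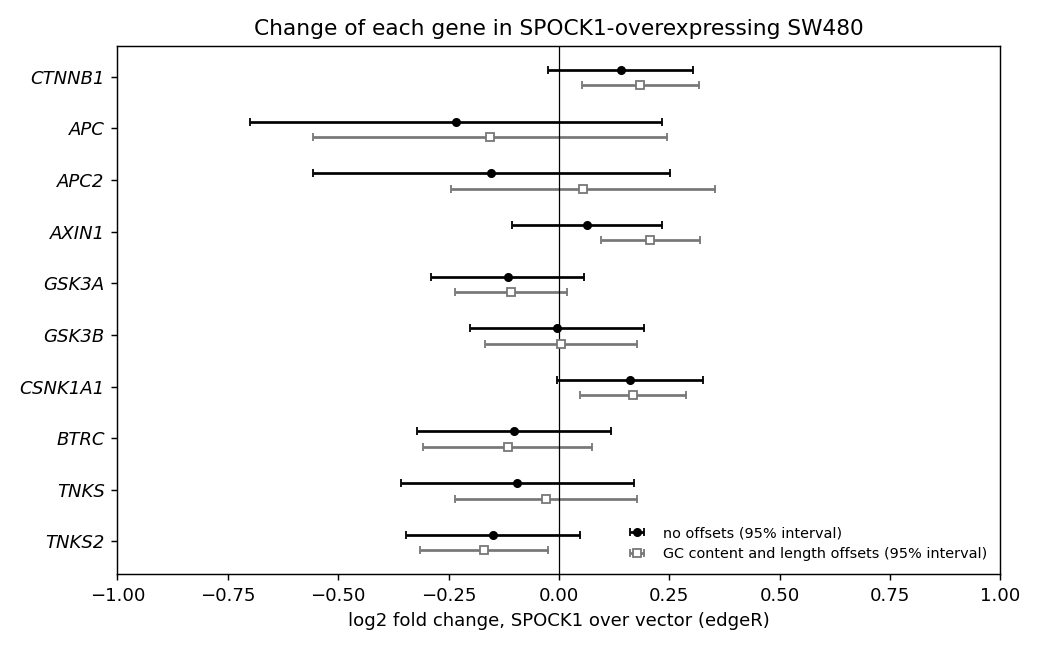
Log2 fold change of each gene, SPOCK1 over vector, with 95% intervals. Filled circles are the fit without offsets and open squares the fit with GC content and length offsets per library. Without offsets all 10 intervals hold 0. With offsets those of AXIN1, CTNNB1, CSNK1A1 and TNKS2 do not, and AXIN1 alone passed the adjusted threshold, at 0.21.

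APC was the most variable of the set. APC (chromosome 5, 112707498 to 112846239, plus strand), which is truncated in this line and which holds β-catenin for phosphorylation where it is intact, had 6.36, 11.9, 14.0 and 11.5 CPM in SPOCK1 libraries 1 to 4 and 16.0, 8.72, 16.5 and 10.2 CPM in vector libraries 1 to 4. Vector libraries 1 and 3 were high and vector libraries 2 and 4 low, while in SPOCK1 cells library 1 was the lowest of all 8. The coefficient of variation over all libraries was 29.5%, against 6.45% for AXIN1. The log2 fold change was -0.23 ± 0.22 (SE, adjusted p = 0.687), with an interval from -38.5% to 17.6%. Within libraries 1 and 3 it was -0.67 and within libraries 2 and 4 it was 0.30 (adjusted p = 0.441 and 0.488), so the direction was not the same in both sets. Without SPOCK1 library 1 it was -0.05 (adjusted p = 0.966).

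**Figure D4:**
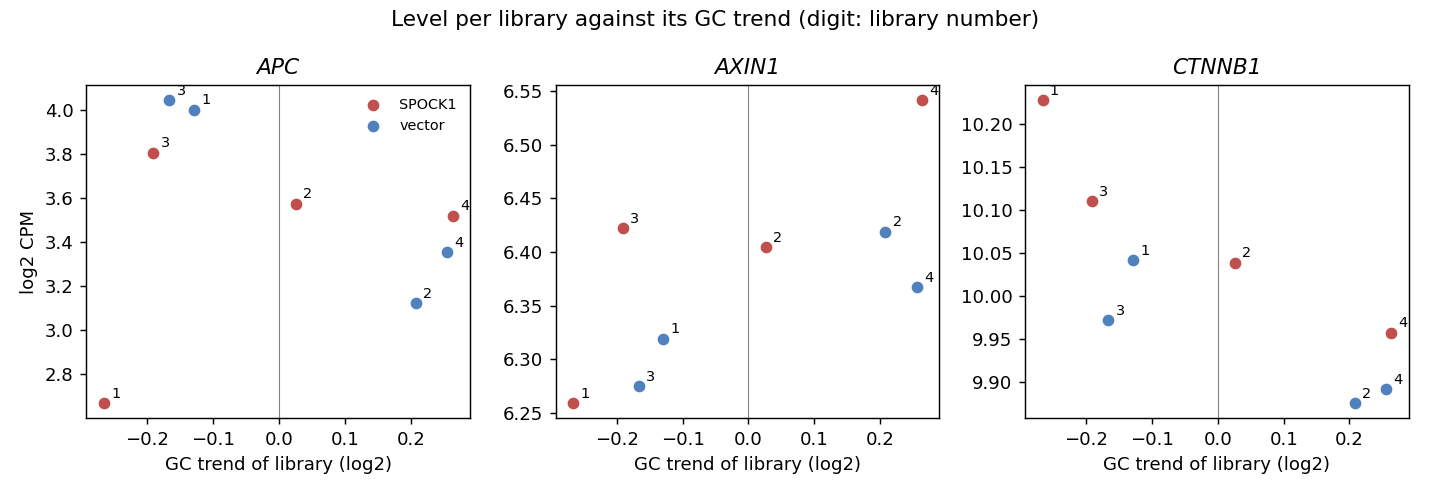
Log2 CPM of APC, AXIN1 and CTNNB1 in each library against the GC trend of that library, on the log2 scale. Points are the 4 SPOCK1 and 4 vector libraries with their numbers. SPOCK1 library 1, with the lowest trend of -0.27, has the lowest APC and AXIN1 and the highest CTNNB1.

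APC2 (chromosome 19, 1446302 to 1473244), a relative of APC known mainly from the nervous system, had 4.31, 6.01, 8.11 and 9.74 CPM in SPOCK1 libraries and 7.28, 8.02, 7.70 and 8.31 CPM in vector libraries. The vector libraries lay close together and the SPOCK1 libraries on both sides of them. The log2 fold change was -0.15 ± 0.19 (SE, adjusted p = 0.771), and it was 0.02 without SPOCK1 library 1. Exons of APC2 overlap those of C19orf25 on the opposite strand, which averaged 2514 counts per library, and the strand setting of the counting is not given in the sources used here, so counts of APC2 are uncertain.

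The kinases showed no common direction. CSNK1A1 (chromosome 5, 149492197 to 149551552), casein kinase 1α, which makes the priming phosphorylation, had 174.8, 167.9, 173.5 and 149.8 CPM in SPOCK1 libraries and 156.5, 137.6, 155.2 and 146.1 CPM in vector libraries. All but SPOCK1 library 4 exceeded every vector library. Its log2 fold change of 0.16 ± 0.08 (SE, adjusted p = 0.375) had the smallest unadjusted p of the set, 0.0544. Its processed copies CSNK1A1L, CSNK1A1P1 and CSNK1A1P3 held 8, 4 and 0 counts over all libraries together. CTNNB1 and CSNK1A1 kept nearly the same proportion in every library, with CTNNB1 per length at 4.05 to 4.44 times CSNK1A1. This ratio was picked from those of CTNNB1 to every other member after its values were seen. GC content of the longest transcript is 43.5% for CTNNB1 and 39.4% for CSNK1A1. The part of the GC trend in their shared course was not tested.

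GSK3A and GSK3B, GSK3α and GSK3β, are kinases of the same step and can replace each other there. GSK3A (chromosome 19, 42230186 to 42242625) had 89.0, 98.3, 89.2 and 105.1 CPM in SPOCK1 libraries and 96.1, 108.7, 99.4 and 109.2 CPM in vector libraries, that is -0.12 ± 0.08 on the log2 scale (SE, adjusted p = 0.567). GSK3B (chromosome 3, 119821323 to 120094417) had 46.9, 56.8, 58.5 and 56.8 CPM in SPOCK1 libraries and 61.2, 54.9, 52.5 and 51.2 CPM in vector libraries. It averaged 54.8 CPM in SPOCK1 cells and 54.9 CPM in vector cells, at -0.0046 ± 0.09 on the log2 scale (SE, adjusted p = 0.989) with an interval from -13.0% to 14.2%. SPOCK1 library 1 stood below the other SPOCK1 libraries for GSK3B, and its removal moved the value to 0.06.

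The ligase and tankyrase genes overlapped between the groups as well. BTRC (chromosome 10, 101354033 to 101557321), whose product recognises phosphorylated β-catenin, averaged 17.9 ± 1.50 CPM in SPOCK1 cells and 19.2 ± 1.36 CPM in vector cells (SD, n = 4 each, log2 fold change -0.10, adjusted p = 0.714). FBXW11, the paralogue that encodes β-TrCP2, averaged 77.0 ± 3.11 CPM in SPOCK1 cells and 80.6 ± 3.94 CPM in vector cells (SD, n = 4 each). Per length FBXW11 had 13.8 CPM per kb in SPOCK1 cells and 14.5 in vector cells, and BTRC had 2.71 in SPOCK1 cells and 2.91 in vector cells. TNKS (chromosome 8, 9555914 to 9782346) had 15.3, 18.7, 19.2 and 18.9 CPM in SPOCK1 libraries and 23.9, 17.6, 16.5 and 18.9 CPM in vector libraries, with library 1 lowest among the SPOCK1 libraries and library 1 highest among the vector libraries. TNKS thus differed by -0.09 ± 0.13 on the log2 scale (SE, adjusted p = 0.788).

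TNKS2 (chromosome 10, 91798312 to 91865276), the more abundant tankyrase here per length, had 40.7, 38.4, 36.8 and 33.6 CPM in SPOCK1 libraries and 44.7, 36.8, 42.4 and 41.9 CPM in vector libraries. Only vector library 2 fell among the SPOCK1 values. The log2 fold change was -0.15 ± 0.09 (SE, adjusted p = 0.506). Among 9 ratios of CTNNB1 to another member, that to TNKS2 was 15.0 ± 0.605 in SPOCK1 cells and 12.3 ± 0.610 in vector cells (per length, SD, n = 4 each). It was chosen after its values were seen and was not tested.

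The balance between paralogues was compared in 4 pairs, as the log2 ratio of CPM in each library. The AXIN1 to AXIN2 ratio was -1.83, -1.91, -1.89 and -1.73 in SPOCK1 libraries and -2.14, -1.98, -1.98 and -2.06 in vector libraries, without overlap. AXIN2 is the inducible relative of AXIN1 and a target of β-catenin itself. Without offsets neither passed by itself, at log2 fold changes of 0.06 for AXIN1 and -0.14 for AXIN2 (edgeR, adjusted p = 0.774 and 0.446). Which of the 2 genes moved the ratio was not tested. The difference in log2 ratio was 0.20, or 0.195 ± 0.011 in SPOCK1 cells and 0.170 ± 0.0089 in vector cells as a linear ratio per length (SD, n = 4 each). The exact two-sided permutation p of 0.0286 is the lowest that 4 against 4 libraries allow. Adjusted over the 4 pairs it was 0.114, and a single pair that differs cannot come below that value in this design. AXIN2 itself averaged 304.2 ± 22.0 CPM in SPOCK1 cells and 335.5 ± 20.5 CPM in vector cells. The differences in log2 ratio were -0.11 for GSK3A to GSK3B, 0.06 for TNKS to TNKS2 and -0.04 for BTRC to FBXW11, with exact two-sided permutation p of 0.371, 0.686 and 0.686 and an adjusted p of 0.686 for each.

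SPOCK1 library 1 stood at an extreme in 8 of the 10 genes. It had the lowest of all 8 values for GSK3A, AXIN1, GSK3B, TNKS, APC and APC2 and the highest for CTNNB1 and CSNK1A1. Its GC trend was also the lowest, and its removal put CTNNB1 at 0.09 and AXIN1 at 0.11 on the log2 scale (adjusted p = 0.741 and 0.666). With GC content and length offsets the library stayed lowest for APC, APC2, GSK3A and GSK3B, at 2.70, 2.55, 6.50 and 5.52 log2 CPM. It stayed highest for CTNNB1, at 10.29, and became highest for AXIN1, at 6.53. For TNKS and CSNK1A1 it was no longer at an extreme. The part of the GC trend in these values was not tested.

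For promoters, the RefSeq table (GRCh38.p14) holds 11 promoters for 8 of the 10 genes, each from 250 bases before to 50 after a start, and none for BTRC and TNKS. Their median GC content was 68.0% and their median number of CpG dinucleotides 33, against 58.7% and 14 over 35116 promoters. The TCF/LEF core CTTTGAT, searched on both strands, was in 0 of 11, and in 2.62% of all promoters. AXIN1 had the most GC-rich of the 11, at 78.0%, and the second promoter of CSNK1A1 the least, at 40.0%.

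Further genes of β-catenin turnover had no call either. Of 34 listed genes 33 were tested, 0 rose, 0 fell and 3 had an unadjusted p under 0.05 (edgeR), against 2157 of 15790 over all genes. DESeq2 and limma-voom called 0, and the median log2 fold change was -0.05, and -0.02 with offsets. This list and those that follow were chosen with earlier results of these data known, so their shares beside all genes are descriptive. Smallest in p were FRAT1, FRAT2 and DIXDC1. FRAT1 and FRAT2 encode proteins that bind GSK3 and draw it away from axin, and they averaged 3.70 ± 0.496 and 9.49 ± 1.04 CPM in SPOCK1 cells, against 5.19 ± 0.871 and 12.0 ± 1.62 CPM in vector cells. Their log2 fold changes were -0.49 ± 0.17 and -0.34 ± 0.13 (SE, adjusted p = 0.200 and 0.272). DIXDC1, a DIX-domain partner of Dishevelled, had -0.34 ± 0.13 (adjusted p = 0.275).

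Nuclear partners of β-catenin had no call by edgeR without offsets. Of 23 listed 22 were tested and 0 were called by edgeR, 19 log2 fold changes were negative, against 8027 of 15790 over all genes, and 5 had an unadjusted p under 0.05, against 2157 of 15790. The median was -0.16 without offsets and -0.09 with them. As the list was chosen with earlier results of these data known, these shares are descriptive. DESeq2 called 1 and limma-voom 0. TCF7, which encodes the TCF1 factor, had 114.1 to 154.2 CPM in SPOCK1 libraries and 169.0 to 178.9 CPM in vector libraries, without overlap (log2 fold change -0.35 ± 0.09, SE, adjusted p = 0.0682). In the fit with offsets TCF7 fell, at -0.26 (adjusted p = 0.0117), and the replicate block beside the offsets ended that call (adjusted p = 0.0588). TCF7 also passed with DESeq2 (adjusted p = 0.0184) and with no filter beyond 1 count (adjusted p = 0.0122). So it did with the block for GC trend (adjusted p = 0.0249) and without SPOCK1 library 4 (adjusted p = 0.0254). In 16 of 21 alternatives TCF7 stayed without a call. MED13, of the Mediator kinase module, and TCF7L1, a mostly repressive TCF, had -0.41 ± 0.13 and -0.39 ± 0.13 (adjusted p = 0.187 and 0.197). MED13 passed with no filter beyond 1 count (adjusted p = 0.0102) and stayed without a call in 20 of 21 alternatives.

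At the junction RNA of E-cadherin and P-cadherin fell, and the catenins and plakophilin tested did not pass in the fit without offsets. Of 11 listed genes 7 were tested, 2 fell and 0 rose, with a median of -0.16. Over all 15790 genes tested 126 fell and 39 rose. An unadjusted p under 0.05 (edgeR) was reached by 4 of the 7, against 2157 of 15790. For 4 of the 7 the groups did not overlap, against 8.23% of all genes. Earlier results of these data were known when the list was chosen, so these shares are descriptive. CDH1, E-cadherin, averaged 11.2 ± 1.21 CPM in SPOCK1 cells and 17.8 ± 1.29 CPM in vector cells (SD, n = 4 each, log2 fold change -0.67 ± 0.11, SE, adjusted p = 0.00537). The CDH1 call held in all 8 fits without a library (adjusted p of 0.00474 to 0.0309) and under the replicate block (adjusted p = 0.0183). It was lost in libraries 1 and 3 alone (adjusted p = 0.223). CDH3, P-cadherin, had 41.7, 45.6, 43.5 and 52.6 CPM in SPOCK1 libraries and 62.1, 62.8, 58.1 and 60.9 CPM in vector libraries, at -0.41 ± 0.09 (SE, adjusted p = 0.0293). The CDH3 call was lost in 7 of 8 fits without a library, with adjusted p of 0.0502 to 0.119, that without SPOCK1 library 4 being the exception, and under the replicate block (adjusted p = 0.0527). JUP, γ-catenin, which can take the place of β-catenin at the junction, had -0.32 ± 0.09 (SE, adjusted p = 0.120). JUP passed with offsets (-0.23, adjusted p = 0.0402), with no filter beyond 1 count (adjusted p = 0.0314), with the block for GC trend (adjusted p = 0.0301) and without SPOCK1 library 4 (adjusted p = 0.0415). It did not pass with the replicate block beside the offsets (adjusted p = 0.117). CTNND1, p120-catenin, had -0.16 ± 0.07 and the plakophilin PKP2 0.07 ± 0.08 (adjusted p = 0.358 and 0.756). CTNNA1, α-catenin, which links β-catenin to actin and was added after its values were seen, averaged 834.9 ± 30.4 CPM in SPOCK1 cells and 802.2 ± 28.3 CPM in vector cells.

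Of 19 genes used as readouts of β-catenin/TCF transcription 18 were tested, 1 rose and 1 fell, with a median of -0.12. Negative log2 fold changes numbered 14 and positive ones 4, against 8027 negative of 15790 over all genes. Over all 15790 genes tested 39 rose and 126 fell. An unadjusted p under 0.05 (edgeR) was reached by 8 of the 18, against 2157 of 15790. For 7 of the 18 the groups did not overlap, against 8.23% of all genes. DKK1 and BMP4 lay above vector, and APCDD1, NOTUM, NKD1, TCF7 and RNF43 below. Since the list was chosen with earlier results of these data known, these shares are descriptive. DKK1, a secreted Wnt antagonist, rose by 0.75 ± 0.14 on the log2 scale (SE, adjusted p = 0.0112, and 0.0519 without vector library 1), and APCDD1, a membrane Wnt inhibitor, fell with -0.38 ± 0.07 (adjusted p = 0.0102, and 0.0610 without SPOCK1 library 2). DKK1 had 15.2, 10.9, 11.7 and 10.2 CPM in SPOCK1 libraries and 6.66, 6.75, 8.08 and 7.09 CPM in vector libraries. Both calls were lost in libraries 1 and 3 alone (adjusted p = 0.262 for DKK1 and 0.306 for APCDD1). In libraries 2 and 4 alone DKK1 lost its call (adjusted p = 0.0613) and APCDD1 kept it (adjusted p = 0.0159). NOTUM, a secreted enzyme that inactivates Wnt proteins, and NKD1, a Dishevelled-binding antagonist, had -0.39 ± 0.09 and -0.26 ± 0.08 (adjusted p = 0.0594 and 0.141), and the groups of both did not overlap. NOTUM passed with offsets (-0.28, adjusted p = 0.0201), and not with the replicate block beside them (adjusted p = 0.0867). NOTUM also passed with DESeq2 (adjusted p = 0.0142) and with no filter beyond 1 count (adjusted p = 0.00464). So it did with the block for GC trend (adjusted p = 0.0127) and without SPOCK1 library 4 (adjusted p = 0.0148). In 16 of 21 alternatives NOTUM stayed without a call. AXIN2 had -0.14 ± 0.08 (adjusted p = 0.446).

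**Figure D5:**
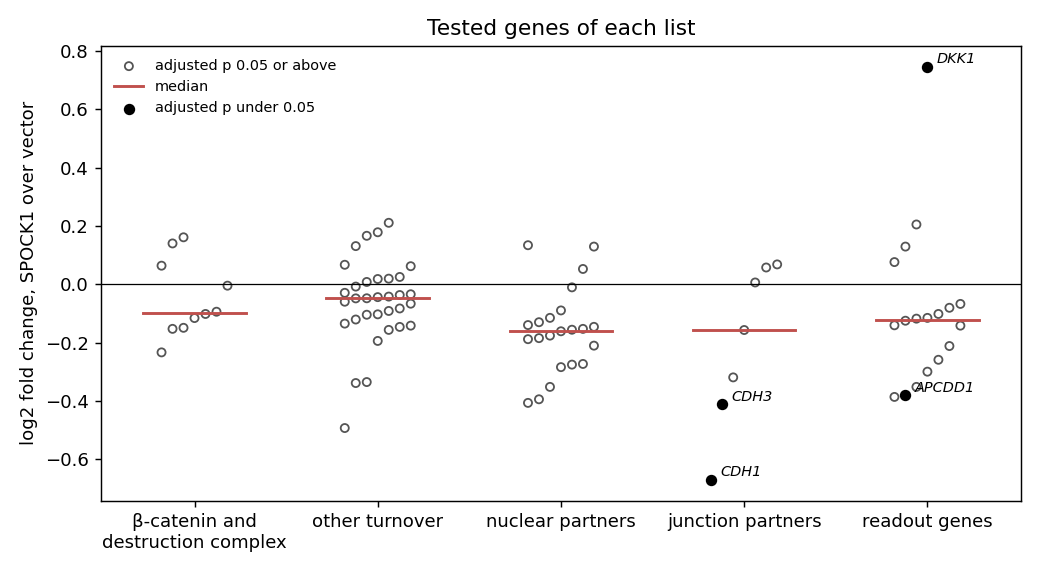
Log2 fold change, SPOCK1 over vector, of every tested gene in 5 lists. Open circles had an adjusted p of 0.05 or above, filled circles are named and passed, and red bars are medians, from -0.16 to -0.05. The calls are CDH1 and CDH3 among junction partners and DKK1 and APCDD1 among readout genes.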

How the data were processed

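RNA was measured in 8 libraries of SW480, grouped by their titles. The values are raw read counts per gene as deposited by the authors. The submitters' processing notes list the tools HISAT2 2.0.5 as well as featureCounts 1.5.0-p3. For the build, the strand setting and multi-mapping reads, the sources used here give nothing. Coordinates and exonic lengths deposited by the authors equal those of GENCODE release 29 (GRCh38) for all 58735 genes. The groups were tested in edgeR 4.0.16 under R 4.3.3 (filterByExpr at 10 counts, total of at least 15, TMM factors, quasi-likelihood F test without covariates, Benjamini-Hochberg adjustment). The SE was taken from the F statistic. Offsets were natural splines of 5 degrees of freedom on GC content of the longest transcript and on log2 exonic length, per library. DESeq2 1.42.0, limma-voom 3.58.1, other scalings and filters, a replicate block and each library left out were alternatives. The fit was checked on simulated counts, and it missed many small changes. Recovery was 56.7% for a simulated shift of 1.5-fold (n = 67). It rose to 83.6% for 2-fold (n = 67) and 92.4% for 4-fold (n = 66). False calls stood at 7.19%, above the nominal threshold of 0.05. Named genes were the 10 members, SPOCK1, AXIN2, FBXW11 and, of each other list, those past 0.05 and the next 3 by p. For CTNNB1 the 5 nearest protein-coding profiles at a mean of at least 1 CPM were added. All 122 list entries were found, 1 of them under another symbol. Members and lists were chosen with earlier results of these data known.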

Additional observations from a re-analysis of the deposited data

Results flagged for a closer look

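Groups of 4 libraries were scanned for a library far from the other 3, in 28 groups of values (10 genes and 4 ratios, in each group of cells). Chance marks about 1 in 20 such groups, and 2 were marked, both in SPOCK1 library 1. GSK3B had 46.9 CPM there and 56.8 to 58.5 CPM in the other SPOCK1 libraries. TNKS had 15.3 CPM there and 18.7 to 19.2 CPM in the other SPOCK1 libraries.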

How the results depend on the processing

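The values of single genes are log2 fold changes. The 10 genes stayed without a call in every alternative run except with GC content and length offsets, where 1 was called: AXIN1, at 0.2075, and at 0.2241 with offsets and without SPOCK1 replicate 4. CTNNB1, AXIN1, GSK3A, CSNK1A1, BTRC and TNKS2 kept their direction in all alternatives. GSK3B, near 0, turned positive with RLE factors (0.0005), upper-quartile factors (0.0015), DESeq2 (0.0005), offsets (0.0047) and in libraries 2 and 4 alone (0.0972), and lay between -0.039 and 0.0609 without 1 library. APC2 turned positive with offsets (0.0542, and 0.0307 with the replicate block beside them) and lay between -0.3449 and 0.0203 without 1 library. TNKS lay between -0.1612 and 0.0291 without 1 library and at 0.0398 in libraries 2 and 4 alone, where APC was at 0.2998. The TNKS to TNKS2 difference lay between -0.0172 and 0.1827 without 1 library. The GC trend block, the split of libraries by GC trend and the fits of AXIN1 with offsets and without 1 library were chosen after seeing the data. The causes were not tested.

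Over all genes 165 were called, 399 with no filter beyond 1 count, 398 with DESeq2, 597 with offsets, 351 with a GC trend block, 8 in libraries 1 and 3 alone and 89 to 237 without 1 library. Nuclear partners had 2 calls with no filter, 1 each with DESeq2, offsets and the GC trend block, and 0 to 1 without 1 library. Junction partners had 3 calls each with no filter, offsets and the GC trend block, 1 with the replicate block, 0 in libraries 1 and 3, 1 in libraries 2 and 4, and 1 to 3 without 1 library. Readout genes had 4 calls each with no filter, DESeq2, offsets and the GC trend block, 0 and 1 in the 2 library sets, and 1 to 4 without 1 library. With the replicate block CTNNB1 stood at 0.1385 (adjusted p = 0.391) and 115 genes were called in all. Same-numbered libraries correlated at -0.16, 0.09, 0.11 and 0.18 in their deviations from the group means. No SPOCK1 library correlated best with the vector library of its own number, and of the vector libraries only library 4 did. The batch label is the same for all 8, so the numbers were not taken as pairs. The paired sign-flip test of 4 pairs cannot pass 0.05. Depth limits APC and APC2 most, at 161 to 614 counts per library.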
